A study of Homo sapiens with 21 samples.

Results

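The genes described here are 8 keratins outside the basal and stress set of mammary epithelial cells: the simple epithelial keratins *KRT7*, *KRT8*, *KRT18* and *KRT19*, the mucosal keratins *KRT4* and *KRT13*, the epithelial keratin *KRT80* and the hair keratin *KRT81*. They were chosen by symbol, and all 8 were found among the 23201 gene symbols measured. RNA-seq was performed on HMLE, an immortalized human mammary epithelial cell line, seeded at the same density, to follow transcription through epithelial to mesenchymal transition (EMT). Cells were sequenced untreated (d0) and at 1, 4, 7, 10, 15 and 20 days of induction with TGFβ (d1, d4, d7, d10, d15 and d20), a cytokine that drives epithelial cells into EMT. There were 3 libraries at each of these 7 timepoints, or 21 libraries, all from the one HMLE line and with no time-matched untreated cells, so TGFβ and days in culture cannot be told apart.

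Keratins are the intermediate filament proteins of epithelial cells, and their filaments are built from obligate pairs of a type I and a type II chain. *KRT8* (type II) with *KRT18* (type I) is the first pair made in simple epithelia and marks luminal cells of the breast, and *KRT7* (type II) and *KRT19* (type I) are added in ducts and glands. *KRT4* (type II) and *KRT13* (type I) pair in the upper layers of the wet stratified epithelia of mouth and oesophagus, *KRT80* (type II) is found in many epithelia, and *KRT81* (type II) belongs to the hair shaft. Basal mammary cells make mainly *KRT5*, *KRT14* and *KRT17*, and loss of keratins with gain of the mesenchymal filament protein vimentin is a known feature of EMT.

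The family is held together by the end of its central rod, a stretch that chains of both types share in part. A 51-base coding stretch at this place is shown for the 3 type I members, to show how alike these chains are. It was read from the GENCODE v29 transcripts, and capitals mark the 28 bases identical in all 8 genes.
KRT18: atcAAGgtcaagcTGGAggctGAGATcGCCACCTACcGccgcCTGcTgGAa
KRT19: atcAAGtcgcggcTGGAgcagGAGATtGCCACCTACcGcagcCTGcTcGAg
KRT13: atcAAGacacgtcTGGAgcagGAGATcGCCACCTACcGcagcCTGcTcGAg

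*KRT19* and *KRT13* shared 47 of the 51 bases, and *KRT18* shared 39 with each of them. The type I genes *KRT19* and *KRT13* lie on chromosome 17. The other members lie on chromosome 12, among them *KRT18*, which is a type I gene next to *KRT8*, its type II partner. Over the whole transcript, 37.1% of the 50-base windows of *KRT8* and 31.8% of those of *KRT18* were also found in other genes, mostly copies such as *KRT8P3* and *KRT18P11*. For *KRT81* it was 44.6%, with 38.4% found in the hair keratin *KRT86*. Reads of these 3 genes could be split with such copies, and their values are uncertain to that extent, while the share was 1.79% or less in each of the other members. Counting only genes among the symbols measured, the share was 2.95% for *KRT8*, 0% for *KRT18* and 42.1% for *KRT81*.

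Values are normalized read counts, that is, whole reads over a single size factor for each library, and the libraries held 18847917 to 22667754 reads. Outside d7, the 18 pairs of libraries from one timepoint had root mean square log2 differences of 0.214 to 0.243. At d7 the third library stood apart, 0.472 and 0.457 from the other two, which differed by 0.223. Its distance was 0.427 to the mean of d4, 0.431 to that of d20 and 0.451 to the other d7 libraries, so the d7 results are given with and without it. Markers of basal mammary cells were above the floor of 3 reads in every library for 12 of 12 genes. Of 16 luminal markers, 8 were above it in every library and 6 were at or under it in all libraries, with *KIT* and *PGR* at 0. Summed luminal markers were 4109 to 4346 at d0 and 1728 to 1863 at d20. Of the immune markers, *PTPRC*, *CD3E*, *NKG7* and *MS4A1* were at or under the floor throughout, likewise *CDH5* and *CLDN5* of the endothelial list and *LEP* of the adipocyte list. Others of these lists, named here after their values were seen, had reads: the growth factor receptor *CSF1R* was at 244 to 305 at d0 and 979 to 1459 at d7, *LYZ* was at 5.84 to 25.1 over all libraries, and the endothelial receptor *KDR* was at 33.6 to 50.9 at d0 and 253 to 273 at d15. In the limma fit described below, *KDR* was lower than d0 at d1, d10 and d20 (log2 fold change -2.8, -3.5 and -1.6). Named in the same way, *CD14* and *PECAM1* were lower on every treated day (-2.9 and -1.7 at d20). *TEK* of the endothelial list was higher at d20 (3.3). Their part in the keratin values was not tested. In bulk RNA, fewer cells of a type and less RNA per cell cannot be told apart.

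All 8 members had reads in every untreated library, and 7 of them had a mean value of at least 10 and were tested with limma over 13343 genes, *KRT4* being too low. The members moved in different directions. *KRT7* rose on all 6 treated days and *KRT13* and *KRT80* fell on all 6, while the other members changed with the day. Each day is compared with the same d0 libraries, so the 6 comparisons are not independent.

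**Figure D1:**
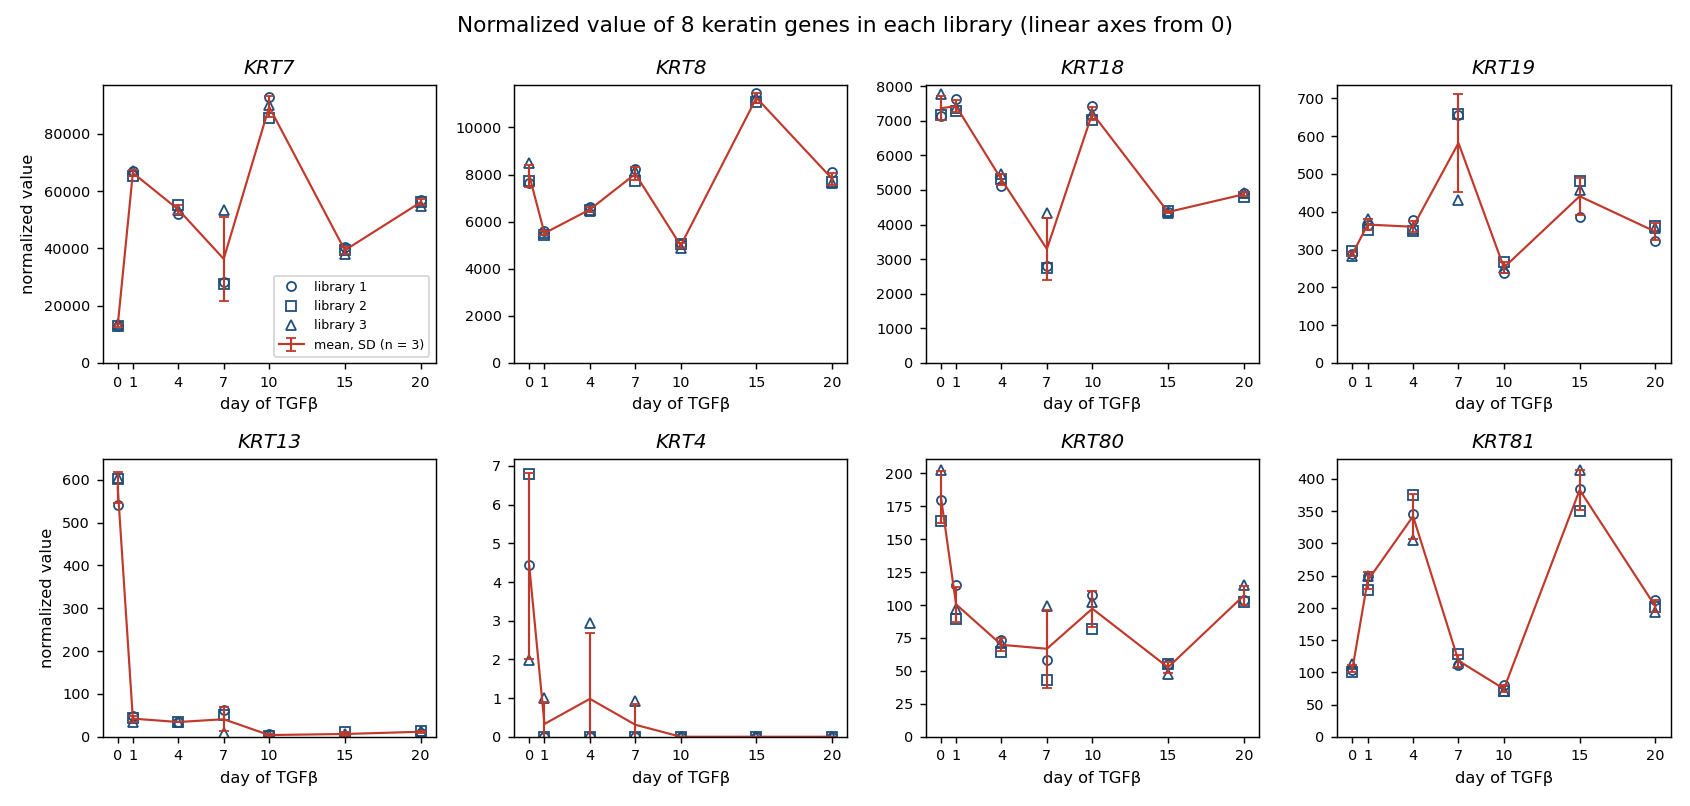
Normalized value (vertical, linear from 0, own scale in each panel) of the 8 keratins against days of TGFβ; symbols are the 3 libraries of a timepoint and the line joins means with SD. *KRT7* is above d0 in every treated library, *KRT13* and *KRT80* are below it, and the triangle at day 7, the third library, lies away from the other two for *KRT7*, *KRT18*, *KRT19*, *KRT13* and *KRT80*.

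*KRT8*, the type II chain of the primary simple pair, was at 7642, 7732 and 8490 in the d0 libraries. It was at 5597, 5422 and 5512 at d1, and at 6617, 6478 and 6457 at d4. The values of d1 and d4 lay below every untreated library. At d7 they were 8227, 7711 and 8148, within the range of d0, and at d10 they were 5036, 5045 and 4882, the lowest of the course. At d15 *KRT8* was at 11477, 11069 and 11231, above every other library, and at d20 at 8101, 7706 and 7646. The log2 fold change against d0 was -0.53 ± 0.04 (SE) at d1, -0.29 at d4, -0.67 at d10 (limma, Benjamini-Hochberg adjusted p = 1.86e-12) and 0.50 at d15 (adjusted p = 1.25e-10). At d7 it was 0.01 (adjusted p = 0.757) and at d20 -0.02 (adjusted p = 0.607), and neither passed the test. Without the third library, the value at d7 was 0.00345 (adjusted p = 0.938). The calls at d7 and d20 depended on the scaling: with library totals made equal, *KRT8* passed as lower at d7 (-0.18, adjusted p = 0.00017) and at d20 (-0.22, adjusted p = 1.22e-05), and it did so with quantile normalization too (-0.10, adjusted p = 0.014, and -0.24, adjusted p = 5.55e-06).

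*KRT18*, the type I partner of *KRT8*, was at 7137, 7171 and 7763 at d0 and at 7614, 7292 and 7353 at d1. It was lower at d4, with 5123, 5308 and 5457, and lowest at d7, with 2791, 2758 and 4330. The first 2 of the d7 libraries were below all others and the third was close to the d15 libraries. At d10 *KRT18* was at 7412, 7022 and 7203, back in reach of d0. It was at 4368, 4387 and 4324 at d15 and at 4907, 4807 and 4904 at d20, both below every untreated library. The log2 fold change was -1.19 ± 0.10 (SE) at d7 (limma, adjusted p = 1.22e-09) and -1.41 without the third library. It was -0.47 at d4, -0.75 at d15 and -0.59 at d20, all past the threshold, against 0.01 at d1 (adjusted p = 0.920) and -0.03 at d10 (adjusted p = 0.818). The last passed with library totals made equal (-0.26) and with quantile normalization (-0.30, adjusted p = 0.00865).

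The 2 partners therefore did not keep to one proportion. The *KRT8*/*KRT18* ratio of normalized values was 1.08 ± 0.0117 (SD, n = 3) at d0 and 0.743 ± 0.00734 at d1. The mean was 1.23 ± 0.0551 at d4 and 2.54 ± 0.577 at d7. On d10 it was down to 0.692 ± 0.0231, followed by 2.58 ± 0.0536 at d15 and 1.60 ± 0.0460 at d20. At d7 the libraries had 2.95, 2.80 and 1.88. All 3 libraries of d1 and of d10 were below the untreated range of 1.07 to 1.09, and all libraries of the other treated days were above it. With 12 treated libraries above and 6 below, the mean log2 ratio of the 18 treated libraries exceeded that of d0 by 0.34 (two-sided exact permutation p = 0.454, smallest possible 0.0015) and by 0.31 without the third d7 library (exact permutation p = 0.504). This test exchanges single libraries, although libraries come in threes from a timepoint and all untreated ones are from d0, so its p-values here and below do not measure the spread between timepoints. For a single day, 3 libraries against 3 cannot reach the threshold in an exact test, and the day values are a description. Per kilobase of transcript, mean *KRT8* was 4227 against 4710 for *KRT18* at d0, 2650 against 4617 at d10, and 5983 against 2791 at d15.

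**Figure D2:**
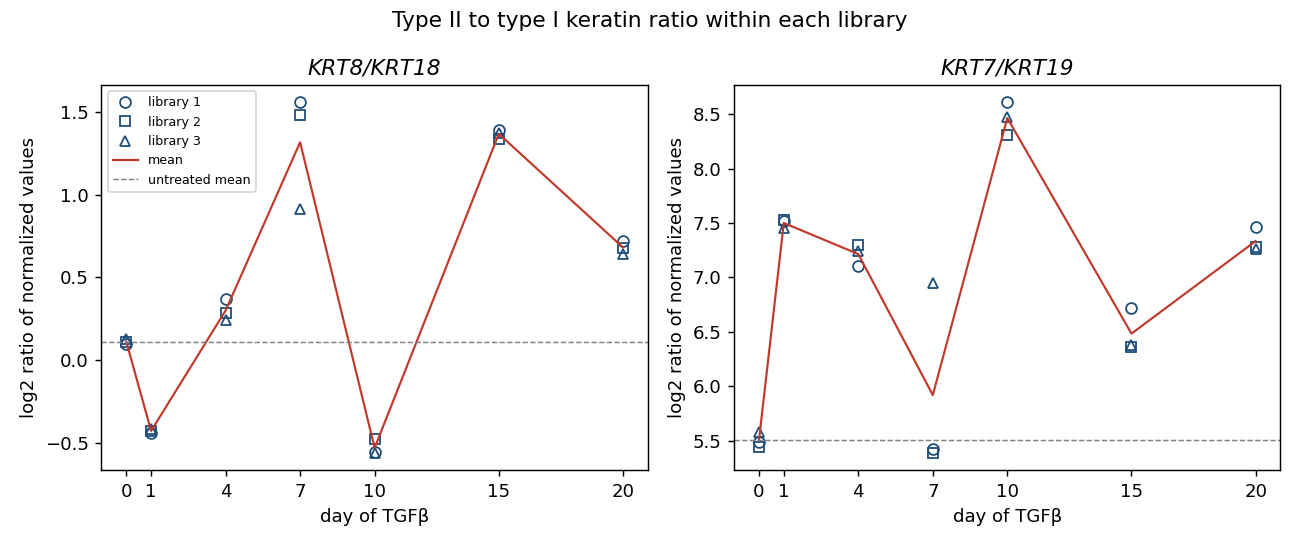
Log2 ratio of normalized values of a type II to a type I keratin in each library (symbols; line, mean; dashes, mean of d0) against days of TGFβ. *KRT8*/*KRT18* falls below the untreated ratio at d1 and d10 and is above it at d4, d7, d15 and d20, and *KRT7*/*KRT19* is above it except in the first 2 libraries of d7.

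*KRT7*, a type II keratin of ducts and glands, had the largest rise of the members. It was at 12974, 12828 and 13559 at d0 and at 67169, 65167 and 66924 at d1. At d4 it was at 52142, 55084 and 53598, and at d7 at 28122, 27598 and 53365. The third d7 library was within the range of d4, and the other two were the lowest treated libraries. *KRT7* peaked at d10, with 92799, 85612 and 90072, and was at 40616, 39468 and 38062 at d15 and 57063, 56384 and 54962 at d20. No treated library overlapped the untreated ones. The rise was 5.06-fold at d1 (log2 2.34 ± 0.14, SE, limma adjusted p = 6.86e-12), 6.82-fold at d10 (2.77, adjusted p = 2.89e-13) and 4.28-fold at d20 (2.10, adjusted p = 3.38e-11). At d4 the log2 fold change was 2.03 and at d15 1.59. The rise at d7 was 2.64-fold, and the log2 fold change was 1.09 without the third library. Per kilobase of transcript *KRT7* had 7480 at d0 and 51023 at d10, the highest level of the 8 keratins at both. The summed luminal markers were 4370 to 4581 at d1 and 2168 to 2255 at d10, against 4109 to 4346 at d0, and their part in the *KRT7* values was not tested.

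*KRT19*, a type I keratin that lacks the tail domain of the other chains, was low throughout. It was at 287, 295 and 283 at d0, 365, 353 and 380 at d1, and 378, 350 and 353 at d4. At d7 it was at 655, 658 and 432. Here too the third library was the one apart, and the first 2 were the highest of the course. At d10 it was at 237, 268 and 252, below every untreated library, at d15 at 386, 480 and 457, and at d20 at 322, 363 and 356. The rise was past the threshold at d1 (log2 0.34 ± 0.11, SE, limma adjusted p = 0.0143), d4 (0.32), d7 (0.98, adjusted p = 1.75e-07, or 1.18 without the third library) and d15 (0.60). With library totals made equal, the values of 0.15 at d1 and 0.12 at d4 did not pass, nor did 0.28 at d4 without the first d4 library. At d10 the value was -0.19 (adjusted p = 0.141) and at d20 0.26 (adjusted p = 0.0502), and without the third d7 library in the fit both passed (adjusted p = 0.0151 and 0.00128).

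The *KRT7*/*KRT19* ratio of normalized values averaged 45.5 ± 2.25 (SD, n = 3) in untreated cells. It was 182 ± 4.80 at d1, 149 ± 9.98 at d4 and 356 ± 36.3 at d10. At d7 the libraries had 42.9, 42.0 and 124. The ratio was 90.3 ± 13.1 at d15 and 162 ± 12.9 at d20. Of the 18 treated libraries, 16 were above and 2, both of d7, below every untreated one. The mean log2 ratio was 1.65 higher in treated libraries (two-sided exact permutation p = 0.015), and 1.66 higher without the third d7 library (exact permutation p = 0.0175). It missed the threshold with any one of the untreated libraries left out (exact permutation p = 0.0632 each time).

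The simple keratins moved against each other from one timepoint to the next. *KRT7* and *KRT8* had opposite signs in all 6 steps from a timepoint to the following one, and both were past the threshold in 5 of them. The exception was *KRT7* from d1 to d4, at -0.31 (limma, adjusted p = 0.0634, or 5.16e-12 without the third d7 library in the fit). *KRT8* and *KRT18* also had opposite signs in 6 of 6 steps, both past in 4, while *KRT7* and *KRT18* had the same sign in 6 of 6, both past in 3. From d7 to d10, *KRT7* rose by 1.37 and *KRT18* by 1.16 on the log2 scale while *KRT8* changed by -0.69 and *KRT19* by -1.18 (limma, all past). Without the third d7 library these were 1.68, 1.38, -0.68 and -1.38. From d10 to d15 all 4 turned, with *KRT7* at -1.18, *KRT18* at -0.73, *KRT8* at 1.17 and *KRT19* at 0.80. From d15 to d20 *KRT7* rose by 0.51 and *KRT8* changed by -0.53, and *KRT18* had 0.16 (adjusted p = 0.154). These pairings were noticed after the values were seen, neighbouring steps share a timepoint, and the counts are a description. Over the 21 libraries, which share their timepoints in threes, the log2 values gave Pearson r = -0.54 and Spearman rho = -0.74 for *KRT7* with *KRT8*, -0.58 and -0.63 for *KRT8* with *KRT18*, and -0.87 and -0.73 for *KRT18* with *KRT19*. *KRT7* with *KRT18* had only 0.12 and 0.41, although their steps shared a sign. The remaining pairs had -0.17 and -0.38 (*KRT7* with *KRT19*) and 0.50 and 0.57 (*KRT8* with *KRT19*).

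**Figure D3:**
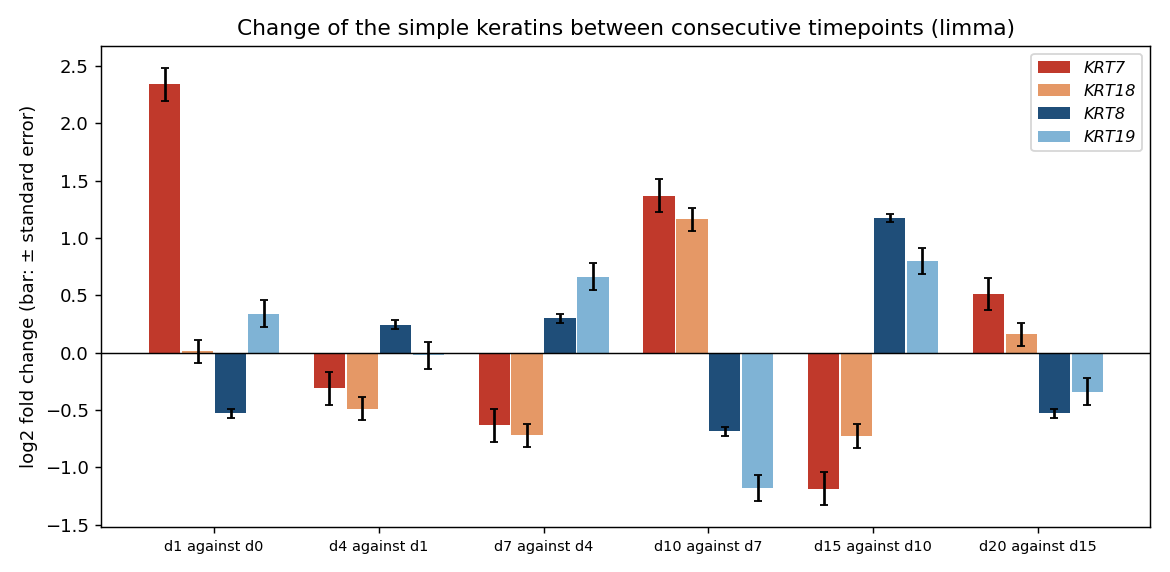
Log2 fold change (limma, bars with ± SE) of the 4 simple keratins between consecutive timepoints, all 3 libraries of each. *KRT7* and *KRT18* (red, orange) point one way and *KRT8* and *KRT19* (blues) the other from d4 to d20, with the widest swings at d10 against d7 and d15 against d10.

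*KRT13*, the type I mucosal keratin, had the largest fold change of the members. It was at 540, 602 and 604 at d0 and already at 48.1, 44.1 and 34.7 at d1. At d4 it was at 33.7, 34.1 and 35.3, and at d7 at 62.3, 51.1 and 9.31, the third library again apart. It was at 5.97, 1.94 and 3.91 at d10, which is 6, 2 and 4 reads, at 2.04, 9.95 and 7.25 at d15, and at 8.48, 12.6 and 13.7 at d20. All treated libraries were at 62.3 or less, against 540 or more at d0. The log2 fold change was -3.76 ± 0.50 (SE) at d1 (limma, adjusted p = 1.42e-06) and -4.04 at d4. It was -4.17 at d7, or -3.34 without the third library, and -6.97 at d10 (adjusted p = 7.30e-11). From d7 to d10 the log2 difference was -2.80 (adjusted p = 4.00e-05), or -3.63 without the third d7 library. The differences of 0.48 from d10 to d15 (adjusted p = 0.380) and 0.93 from d15 to d20 (adjusted p = 0.0984) did not pass. Without the third d7 library the latter passed (limma, adjusted p = 0.00510). In a limma fit of only the 2 groups it passed too (adjusted p = 0.0494). It did not with a pseudocount of 10 (limma, adjusted p = 0.223), with edgeR (adjusted p = 0.278) or with DESeq2 (adjusted p = 0.206).

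*KRT4*, the type II partner of *KRT13*, was at the limit of detection. The untreated libraries had 5, 8 and 2 reads. Of the 9 libraries of d1, d4 and d7, 6 had none and the others 1, 3 and 1 reads. All 9 libraries of d10, d15 and d20 had 0 reads. With 3 reads over the group taken as the floor, the observed d0 mean was 4.49-fold, 4.47-fold and 4.28-fold above the floor of these days. This covers only counting error on the 0 reads, and not that of the 15 reads at d0, so the fold is no lower bound. *KRT4* was below the level tested. In the *KRT4*/*KRT13* ratio the log2 difference of 3.05 between treated and untreated libraries (two-sided exact permutation p = 0.0015, the smallest possible) rests on the pseudocount of 1 beside *KRT4* at or near 0 reads and is no measure of the balance of the pair. It was 2.97 without the third d7 library (exact permutation p = 0.00175).

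*KRT80* was at 180, 164 and 203 at d0 and lower on every treated day. It was at 115, 89.2 and 97.3 at d1, 73.6, 64.3 and 71.5 at d4, and 58.0, 42.8 and 99.6 at d7. At d15 it was at 55.1, 55.2 and 47.7, which overlaps d7, and the d20 libraries had 104, 102 and 116. All treated libraries were below the untreated range. Its log2 fold change was -1.77 ± 0.20 (SE) at d15 (limma, adjusted p = 5.17e-08), -1.37 at d4, -0.85 at d1, -0.90 at d10 and -0.76 at d20 (adjusted p = 0.00230). At d7 it was -1.51 with and -1.84 without the third library.

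*KRT81*, a hair keratin, had 2 peaks. It was at 104, 101 and 113 at d0, at 250, 228 and 249 at d1 and at 346, 375 and 306 at d4. At d7 it was back at 111, 128 and 114, and it was lowest at d10 with 80.6, 70.9 and 71.4. At d15 it was at 385, 351 and 413, and at d20 at 212, 201 and 194. The log2 fold change was 1.19 ± 0.09 (SE) at d1, 1.68 at d4, -0.51 at d10 (limma, adjusted p = 5.29e-05), 1.84 at d15 (adjusted p = 8.87e-14) and 0.93 at d20. At d7 it was 0.15 (adjusted p = 0.153), or 0.17 without the third library. Its near copy *KRT86* had means of 5.86 at d0, 9.17 at d10 and 44.3 at d15. The sum of both genes, which does not depend on how reads were split between them, was lowest at d10, with 83.5 ± 7.02 (SD, n = 3), then 112 ± 8.63 at d0 and 129 ± 10.8 at d7. It was 219 ± 9.27 at d20 and 249 ± 13.8 at d1, and highest with 356 ± 29.4 at d4 and 427 ± 36.3 at d15. This is the order of timepoints of *KRT81* alone.

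**Figure D4:**
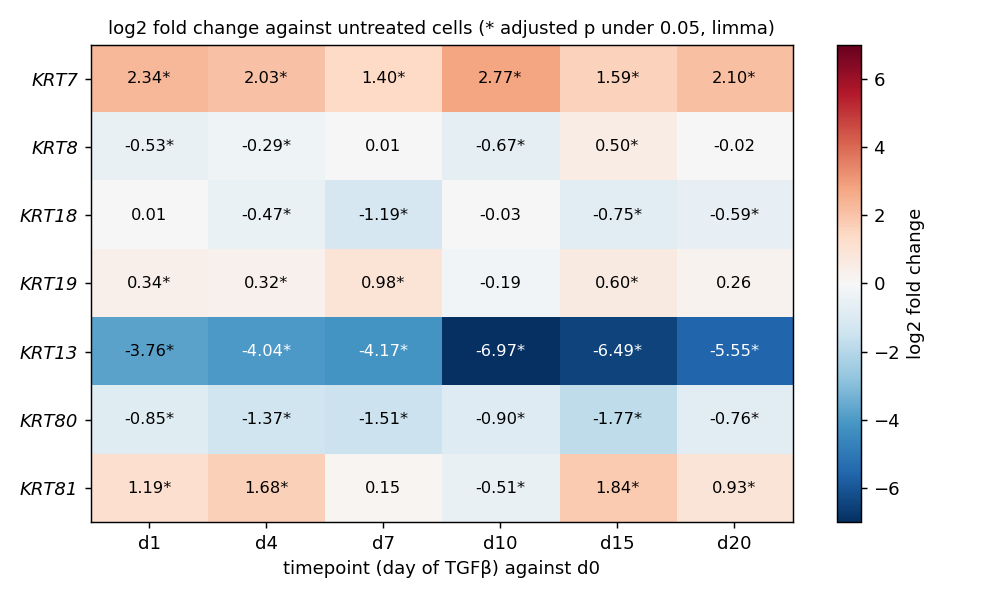
Log2 fold change against d0 (limma, 3 libraries a timepoint) of the 7 members tested, with an asterisk for an adjusted p under 0.05. *KRT7* is red and *KRT13* and *KRT80* blue in every column, while *KRT8*, *KRT18*, *KRT19* and *KRT81* have days that did not pass.

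Counted over the 7 members tested, 3 rose and 3 fell at d1, where 31.3% of all genes tested rose and 28.5% fell. At d4 it was 3 and 4 (36.9% and 35.3% of all genes), at d7 2 and 3 (34.6% and 32.6%), also without the third d7 library (36.8% and 34.4%), and at d10 1 and 4 (37.0% and 30.7%). At d15 it was 4 and 3 (39.2% and 37.3%), and at d20 2 and 3 (32.5% and 30.2%). With so large a share of all genes past the threshold, these counts say little about the members. With at least a 2-fold change, 3 members changed at d1 (10.3% of all genes), 4 at d4 (14.7%) and 4 at d7 (11.7%), or 5 at d7 without the third library (13.2%), *KRT19* being the one added. The same count was 2 at d10 (14.3%) and 4 at d15 (20.3%). At d20 it was 2 (12.2%), and *KRT7* and *KRT13* were among them every day. Between consecutive timepoints 4 members changed from d1 to d4 (64.9% of all genes), 5 from d4 to d7 (51.1%, or 6 and 59.3% without the third d7 library, *KRT80* being added), 7 from d7 to d10 (71.4%), 6 from d10 to d15 (79.8%) and 5 from d15 to d20 (74.1%). Without the third d7 library in the fit, 5 changed from d1 to d4 (70.7%) and 7 from d15 to d20 (77.5%). Against d0, 5 then fell at d10 (33.1% of all genes) and 3 rose at d20 (35.4%). The median log2 fold change of the members lay between -0.51 at d10 and 0.50 at d15, and that of all genes between -0.00047 and 0.03.

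The share of the members in keratin RNA changed with the day. All 54 keratin genes together took 2.26% ± 0.0539 (SD, n = 3) of reads at d0, 3.06% at d15 and 1.55% at d10. Their part was highest at d7, with 3.35%, between 2.17% and 4.04%, and 3.94% over the first 2 libraries. The 8 members made up 7.10% ± 0.162 of keratin reads at d0, 19.5% ± 0.373 at d1, 16.7% at d4, 30.6% ± 0.886 at d10, 8.87% ± 0.207 at d15 and 19.1% at d20. At d7 the share was 8.06% ± 5.75, between 4.65% and 14.7%, and 4.74% over the first 2 libraries. Within the members, *KRT7* held 44.3% of reads at d0 and 87.6% at d10. The shares are of reads and not per length.

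Of the 46 other keratins, 13 were tested, and 5 rose and 5 fell at d20, beside 32.5% and 30.2% of all genes, with a median log2 fold change of 0.06 beside -0.00047 for all genes. At d10, 2 rose and 7 fell, beside 37.0% and 30.7% of all genes. At d7, 7 rose and 2 fell (34.6% and 32.6% of all genes), or 8 and 2 without the third d7 library (36.8% and 34.4%). Among those tested, *KRT15*, a basal keratin, fell most at d20, from 19185 to 640.2 (log2 -4.90), followed by *KRT6B*, a stress keratin (-2.56), and the hair keratin *KRT34* rose from 5.48 to 50.1 (3.02). *KRT23*, too low on average to be tested and named after its values were seen, had 41, 37 and 37 reads at d0 and 1, 0 and 0 at d20. Of the 5 other keratins with the highest values, *KRT5* (-1.04) and *KRT16* (-1.20) fell at d20, *KRT6A* (0.65) and *KRT14* (0.33) rose, and *KRT17* had 0.31 (limma, adjusted p = 0.291).

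The counts of the lists below stand beside the same 32.5% of all genes that rose at d20 and 30.2% that fell. Filament linkers are taken here as genes that tie or bind keratin filaments, at desmosomes, hemidesmosomes or elsewhere. Of the 13 linkers tested, 8 fell and 2 rose at d20, and envoplakin (*EVPL*, -2.55) and periplakin (*PPL*, -2.47) fell most. At d7, 8 of the 13 linkers rose and 4 fell, with and without the third d7 library, beside 34.6% and 32.6% of all genes. Of the other intermediate filament genes, 6 of 10 tested rose at d20 and 1 fell, led by vimentin (*VIM*, 3.62, from 5181 to 63815) and nestin (*NES*, 3.62, from 3.02 to 37.4). Among genes of mucosal and cornified differentiation 3 of 13 tested rose and 8 fell at d20. The envelope precursor *SPRR1A* (-5.66) and *SBSN* (-5.03) fell most. Those that rose, named after their values were seen, were *IVL* (2.58), *ECM1* (1.73) and *ANXA1* (0.25). At d15, 2 of the 13 rose and 11 fell (39.2% and 37.3% of all genes). Luminal markers included no gene that rose at d20 and 6 of 8 that fell, with *EPCAM*, an epithelial adhesion protein, at -2.39 and the secreted protease inhibitor *SLPI* at -2.04. Of the 12 basal markers 7 rose and 2 fell at d20. Of 3 immune markers tested 1 rose and 1 fell, of 3 endothelial markers 1 rose and 2 fell, and none of the 4 adipocyte markers was tested.

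Over the 21 libraries, the genes whose log2 values followed each member most closely by Pearson r were *TSPAN5* (0.984), *AKAP12* and *MAP7D1* for *KRT7*, and *PRCP* (0.981), *CDNF* and *ABHD14B* for *KRT8*. For *KRT18* they were *ME2* (0.980), *SNHG3* and *GMPS*, for *KRT19* the basal keratin *KRT14* (0.971), *EPSTI1* and *PQLC3*, and for *KRT13* *TLR5* (0.960), *EVPL* and *IGFBP2*. For *KRT80* they were *C9orf140* (0.952), *PGD* and *PSIP1*, and for *KRT81* *SLC1A4* (0.905), *NFKB2* and *EIF4E3*. These are the top 3 of all genes tested and a description of these libraries, which share their timepoints.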

How the data were processed

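RNA-seq of HMLE cells at 7 timepoints, 3 libraries each, was taken from the deposited table. The deposited values are a normalized signal for each gene symbol in each library: whole reads over a single size factor for the library, rounded to 2 decimals by the authors. Read at values of up to 400 reads, 8559 or more genes in each library, 100% were whole reads within 0.1 of a read. The submitters' processing notes name STAR 2.7, Salmon 1.4 and hg19, without their roles. The table's columns show the day but no replicate number, and libraries are named by column order.

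The 13343 of 23201 genes whose mean was 10 or more entered one limma 3.58.1 fit of all 21 libraries (R 4.3.3, eBayes with trend) on log2(value + 1). Adjustment followed Benjamini and Hochberg in each contrast over these genes, and the threshold was 0.05. Fold changes are on the log2(value + 1) scale, which understates changes of low genes. Ratios of paired keratins were compared by two-sided exact permutation tests over libraries (SciPy 1.17.1). The study calls its libraries biological triplicates. The p-values measure the spread between these libraries. The fit was tested on simulated counts.

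Alternatives were a pseudocount of 10, no filter (19546 genes), quantile normalization, rescaling to equal totals, a fit of only the 2 groups compared, edgeR 4.0.16 (quasi-likelihood) and DESeq2 1.42.0 on the recovered reads, a 2-fold minimum and each library left out in turn. Leaving out the third d7 library in comparisons of other days was added after seeing the data. The members and gene lists were chosen with earlier results of these data known.

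Named beyond the members are the 5 other keratins with the highest mean and the 3 with the largest change at d20, the 2 genes with the largest change at d20 in each of 4 lists (filament linkers, other intermediate filaments, mucosal differentiation, luminal markers), and the 3 genes most correlated with each member. Some further genes are marked in the text as named after their values were seen. Sequences came from GENCODE v29, which is on a later build than hg19, so no coordinates are given. Chromosomes and neighbouring genes came from the RefSeq gene annotation. One marker gene and some sequences are not reported here.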

Additional observations from a re-analysis of the deposited data

Results flagged for a closer look

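*KRT8* and *KRT81* were flagged because their change against untreated cells had opposite signs at d15 and d10, both past the threshold. *KRT8* was lower than d0 at d10 and higher at d15, and the difference between the days was 1.17 on the log2 scale (SE 0.04, limma adjusted p = 1.56e-16). *KRT81* was likewise lower at d10 and higher at d15, with a difference of 2.35 (SE 0.09, limma adjusted p = 2.26e-15). These p-values restate the choice, since a gene called in opposite directions on 2 days must differ between them. In both genes the 3 libraries of d15 lay above and the 3 of d10 below every untreated library.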

How the results depend on the processing

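No paired analysis was possible because column headers show the day alone. Of 246 values of the member counts under the alternatives, 239 were within 1.5 times the reported count. The others came with the 2-fold minimum, which left 1 member lower at d1, 2 lower at d4, 1 higher at d7, 1 lower at d10, 2 higher at d15, and 1 higher and 1 lower at d20. With libraries left out in turn, the *KRT7*/*KRT19* difference ranged from 1.57 to 1.75, and it missed the threshold whenever any one untreated library was left out (1.65, 1.62 and 1.69). Of 539 values of the members' fold changes against d0, 511 kept direction and side of the threshold. Those that changed sign belonged to values near 0 and not past the threshold. *KRT8* at d7 became -0.18 with rescaling to equal totals, -0.10 with quantile normalization and -0.0075 with edgeR, the first 2 past the threshold as lower, and ranged from -0.014 to 0.062 with libraries left out. *KRT18* at d1 became -0.18, -0.19 and -0.0053 under the same 3, and ranged from -0.0082 to 0.052. *KRT8* at d20 ranged from -0.052 to 0.024, and *KRT18* at d10 from -0.049 to 0.011. *KRT81* at d7 became -0.039 with rescaling, which moved the median of all genes against d0 by -0.20 to -0.14. *KRT19* lost its call at d1 and d4 with rescaling (0.15 and 0.12), and at d4 without the first d4 library (0.28). *KRT8* at d20 (-0.22), *KRT18* at d10 (-0.26) and *KRT19* at d10 (-0.42) passed with rescaling, and the first 2 also with quantile normalization (-0.24 and -0.30). In the limma fit of only the 2 groups compared, *KRT19* passed at d10 (-0.19, adjusted p = 0.025) and d20 (0.26, adjusted p = 0.0025). The cause of these changes was not tested. Low reads limit *KRT4* and, from d10 on, *KRT13*.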
